A study of Mus musculus with 76 samples.

Results

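The genes described here are the activator protein AP-1 family, Fos, Fosb, Fosl1, Fosl2, Jun, Junb and Jund, together with the phosphatase gene Dusp1 and the zinc finger factors Egr1 and Egr2. They are 10 of the 18194 genes that had a probe set of their own, taken by symbol, each through the probe set with the highest mean. All 10 passed the filter on low values that left 13868 genes for testing. RNA of 76 mouse tumours (strain C57BL/6) was measured on 1 Affymetrix array each, in a directed complementation model. The tumours started from an oncogene, HER2(V659E), kept on by doxycycline. Withdrawal of doxycycline switched it off in all 13 groups, and each group received its own introduced gene, with MSP, the ligand of RON, added in 1 group, to test whether it could keep the tumour growing. The introduced genes were MAP3K11 (MLK3), MAP3K7 (TAK1), RSK2, FAK1, TNK2, PIP5K1B, ErbB3, FGFR2aIIIb, FGFR2aIIIc, FGFR3, RONd160, RON+MSP and HER2 itself. There were 6 arrays per group except in FAK1, with 4. Cachexia, a wasting syndrome of cancer, is given in the labels for the 6 MAP3K11 tumours and for none of the other 70. Ages, the promoter of the introduced gene and the host of the tumours are not given in the labels.

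The deposited values were on the log2 scale, with array medians between 5.45 and 5.56, and the number of arrays limits the precision. The labels call the arrays biological replicates and add T1, T2 or T3, which they do not define. Since animals and tumour lines are not named, the p-values speak only of array-to-array spread, part of which may be technical, and the introduced gene and the tumour line cannot be told apart. Arrays of a group fell into pairs that shared the median expression of the 19 autosomes. The median Pearson r of these chromosome medians was 0.957 within the 38 pairs and 0.162 between other arrays of a group, a gap that the matching favours. The MAP3K11 pairs were at 0.81, 0.95 and 0.47, the last the lowest of the 38, so the pairing is less sure in that group. The fit was repeated with the pairs as a random block, and the text gives calls of the 10 genes that this lost. The epithelial genes Krt8, Epcam and Cdh1 averaged 12.55, 7.15 and 6.94 over the arrays, against 2.95 for probe sets of a bacterial control gene. In RNA of whole tumours, fewer cells of a type and less RNA per cell cannot be told apart.

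AP-1 is a dimer of a Fos and a Jun protein that binds DNA through a basic region and holds together through a leucine zipper. Growth factor and stress signals induce Fos, Fosb, Junb, Egr1 and Egr2 within minutes as immediate early genes, and JNK, which MAP3K11 and MAP3K7 activate through the kinases MKK4 and MKK7, phosphorylates Jun and Jund. Dusp1 encodes a phosphatase that removes the activating phosphates from p38, JNK and ERK, and it is itself induced by the pathways it ends.

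Promoters from RefSeq (mouse assembly GRCm38.p6) were available here for 8 of the 10 genes, in 12 windows, and the 250 bases before each start were searched on both strands. The cAMP and ATF/AP-1 element TGACNTCA was found in the windows of Jun and Dusp1, and it is present in 7.49% of 32851 mouse promoters. The Egr element GCGNGGGCG was found in Fosl2 and Fosb and is present in 4.7%, and a CArG box, the site of serum response factor, in Egr2 and in 1.47%. The classical AP-1 element TGANTCA, searched with only C or G at N and present in 4.46%, was in none of the members' windows. The matches are shown because factors of the AP-1, ATF and Egr families and serum response factor are known to bind such elements, with the matched bases in capitals.
Jun, chr4:95052249-95052278, minus strand: aagcctcggggTGACATCAtgggctatttt
Dusp1, chr17:26508597-26508626, minus strand: ggtagggcgggTGACGTCAccgcccggtca
Egr2, chr10:67537787-67537816, plus strand: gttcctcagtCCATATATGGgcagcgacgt
Egr2, chr10:67537484-67537513, plus strand: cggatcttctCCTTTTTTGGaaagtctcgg
Fosl2, chr5:32136382-32136411, plus strand: tccggctgcgcGCGGGGGCGgaagggcgcg
Fosb, chr7:19310077-19310106, minus strand: gtgacgcaagcGCGGGGGCGggtcccggag
A match describes the letters of a window and shows no binding.

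The 250 bases before the starts of Dusp1 and Jund are given whole because these genes separated MAP3K11 tumours most clearly and their 13 group means were correlated (Pearson r = 0.83). MAP3K11 had the highest mean of both genes, so this 1 group weighs in that r, and within groups r was 0.32. Capitals in the Dusp1 sequence mark the element above, and the Jund window held none of the searched elements.
Dusp1, chr17:26508473-26508722, minus strand: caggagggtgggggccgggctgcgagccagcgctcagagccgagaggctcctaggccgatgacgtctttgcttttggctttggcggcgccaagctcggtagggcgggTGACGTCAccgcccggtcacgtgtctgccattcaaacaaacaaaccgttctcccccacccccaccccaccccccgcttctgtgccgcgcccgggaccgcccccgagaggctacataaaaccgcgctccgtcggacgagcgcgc
Jund, chr8:70697489-70697738, plus strand: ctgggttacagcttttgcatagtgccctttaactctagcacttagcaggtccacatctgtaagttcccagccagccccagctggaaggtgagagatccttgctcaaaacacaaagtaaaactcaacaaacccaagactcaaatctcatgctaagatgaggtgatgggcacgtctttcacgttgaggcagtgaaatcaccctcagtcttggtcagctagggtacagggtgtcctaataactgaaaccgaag

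By an F test in limma across the 13 groups, 9 of the 10 genes were called (adjusted p under 0.05), where 85.9% of all genes tested were. Fos was the exception, at an adjusted p of 0.156. With the pairs as a block 8 genes were called, against 54% of all genes, and Fosb was lost at an adjusted p of 0.202. Over the 78 pairs of groups, Dusp1 was called in 30, Egr2 in 23 and Jund in 21, and with the block in 20, 11 and 12. Egr1 was called in 7 pairs, Fosb in 6 and Fos in 3, and with the block in 5, 1 and 0. The range of the 13 group means was 2.85 for Dusp1 and 1.79 for Egr2, and 0.57 for Fosl2.

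MAP3K11 tumours had higher Dusp1, Egr2, Jund and Fosl2 and lower Jun than the mean of the other 12 groups. These 5 calls by limma compare with 54.2% of all genes, and 4 were higher, where 25% of all genes were. The median difference of the 10 genes was 0.17, against -0.01 for all genes tested. With the pairs as a block the 4 higher genes were called and Jun was lost (adjusted p = 0.0976), against 39.3% of all genes.

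Dusp1 (gene ID 19252, chromosome 17, 26505591 to 26508472, GRCm38.p6) had the largest difference among the 10 genes. It was between 10.74 and 11.50 in MAP3K11 tumours (median 11.11), against 7.79 to 11.00 in the other 70. Only 2 of those 70 arrays lay above the lowest MAP3K11 array, RSK2 T1 replicate 1 at 10.88 and RSK2 T2 replicate 2 at 11.00, which form 1 matched pair. The difference was 2.30 ± 0.22 (SE, adjusted p = 9.95e-14 by limma), a 4.93-fold higher level in MAP3K11 tumours. It was 2.00 among T1 arrays, 2.32 among T2 arrays and 2.61 among T3 arrays. The T labels hold the 2 arrays of each pair apart, so these 3 values are not independent.

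The order of groups for Dusp1 had MAP3K11 first (mean 11.12 ± 0.34, SD, n = 6). RSK2 followed at 10.03 ± 0.80, MAP3K7 at 9.45 ± 0.82 and RON+MSP at 9.35 ± 0.56. Of the 12 steps between neighbours, the step from MAP3K11 to RSK2 was called (1.09, adjusted p = 0.003 by limma). The other 9 groups ran in small steps between 8.85 in ErbB3 and 8.27 in FGFR2aIIIb, with HER2 at 8.37 ± 0.28. RSK2, a kinase that ERK activates, was itself above the other groups, by 1.12 ± 0.22 (adjusted p = 0.000379 by limma), the only called gene of the 10 there, where 18.2% of all genes were called and 2.59% with the block.

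Jund (chromosome 8, 70697739 to 70700616), the family member usually expressed at a steady level, did not overlap at all. It was between 10.16 and 10.71 in MAP3K11 tumours (median 10.49), against 9.21 to 10.13 in the other 70 arrays. Among the 10 genes it alone separated the groups completely, as 3.35% of all genes did. The difference was 0.84 ± 0.07 (adjusted p = 1.92e-16 by limma), or 1.78-fold, and it was 0.83, 0.67 and 1.02 within T1, T2 and T3. MAP3K7 came next (9.84 ± 0.25) and HER2 after it (9.80 ± 0.16), and of the 12 neighbouring steps only that from MAP3K11 to MAP3K7 was called (0.63, adjusted p = 1.29e-07 by limma). A dimmer probe set of Jund, at a mean of 3.63, correlated with the main one at r = 0.30 over 76 arrays.

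Egr2 (chromosome 10, 67534469 to 67542188), a zinc finger factor of the immediate early response, was between 7.88 and 8.38 in MAP3K11 tumours (median 8.12). In the other groups it spanned 5.75 to 8.66, and 10 of the 70 arrays lay above the lowest MAP3K11 array. The difference was 0.99 ± 0.22 (adjusted p = 0.000128 by limma). RON+MSP followed MAP3K11 in the order at 7.98 ± 0.49 and ErbB3 at 7.77 ± 0.59, and neither neighbouring step was called. HER2 was lowest at 6.32 ± 0.29.

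Fosl2 (chromosome 5, 32136472 to 32157840) encodes a Fos protein without the strong activation domain of Fos. It was between 10.21 and 10.73 in MAP3K11 tumours (median 10.50), against 9.29 to 11.04 in the other 70 arrays, of which 24 lay above the lowest MAP3K11 array. The difference of 0.34 ± 0.09 (adjusted p = 0.00163 by limma) is 1.26-fold. It depended on the probe set: the other Fosl2 probe set, with a mean of 6.28 and r = 0.18 with the main one, gave 0.04 (adjusted p = 0.788).

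**Figure D1:**
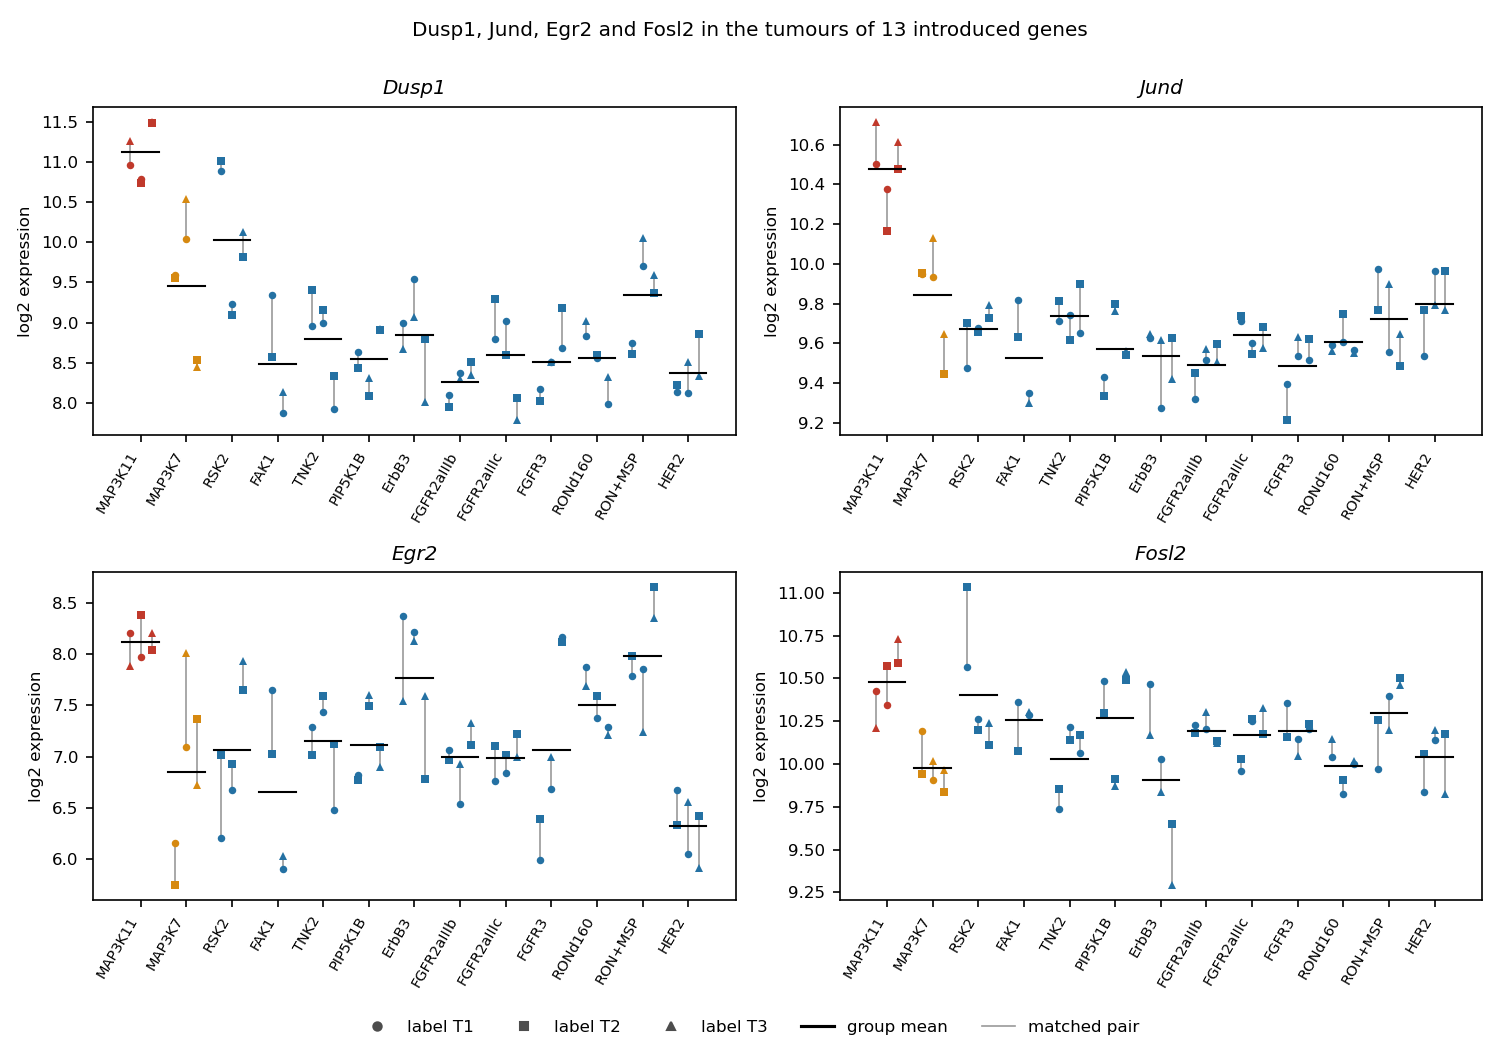
Log2 expression (vertical axis) of Dusp1, Jund, Egr2 and Fosl2 in each array, by introduced gene (horizontal axis); marker shape gives the T label, grey lines join matched pairs and black bars are group means. Jund in MAP3K11 tumours (10.16 to 10.71) lies above all 70 other arrays, and only 2 RSK2 arrays reach the lowest MAP3K11 array for Dusp1.

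Fos, Fosb, Junb and Egr1, genes of the classical immediate early response, were not called in MAP3K11 tumours, though with array weights Fos (adjusted p = 0.0374) and Junb (adjusted p = 0.0261) passed as lower by limma. Fos was between 8.31 and 9.44 in MAP3K11 tumours (median 8.75), with the lowest group mean of all 13 (8.83 ± 0.42). Against the other groups it differed by -0.56 ± 0.27, which did not pass (adjusted p = 0.0776 by limma). Jun, the main partner of Fos, was between 10.32 and 10.71 in MAP3K11 tumours, and its difference was -0.28 ± 0.12 (adjusted p = 0.0408 by limma). The other Jun probe set gave -0.07, which did not pass. Junb differed by -0.31 (adjusted p = 0.0814 by limma), Egr1 by 0.18, Fosl1 by 0.16 and Fosb by 0.08, none of which passed. The 95% interval of the difference was -0.45 to 0.61 for Fosb, -0.23 to 0.55 for Fosl1 and -0.21 to 0.58 for Egr1, so changes of such sizes were not excluded.

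Markers of several cell types were called in MAP3K11 against the other groups, where 54.2% of all genes were called and 39.3% with the block. Of the fibroblast markers 7 of 9 were higher and Dcn lower, and of the endothelial markers 6 of 8 were higher (with the block 7 and 5 higher). The mean of the fibroblast list, centred on all arrays, ran from 0.36 to 0.79 in MAP3K11 tumours, against -1.53 to 0.87 in the other 70. The skeletal muscle list ran from -2.39 to -2.10 in MAP3K11 tumours, against -2.26 to 4.21, with 7 of 10 genes lower (3 with the block), and Myh1 (2.86) and Myh4 (2.78) were below the control level in MAP3K11 tumours. Macrophage genes were lower in 7 of 12 (6 with the block) and higher in 0. The 54.2% of all genes counts both directions, with 25% higher, so it is no measure for a share of lower genes alone. Epithelial markers were higher in 4 of 9 and lower in 1 (with the block 3 and 1). Heat shock genes were higher in 2 of 11 and lower in 5 (with the block 2 and 2). T and NK cell markers were higher in 3 of 7, B cell markers in 2 of 4 and neutrophil markers in 1 of 6, with 0 lower. With the block these counts fell to 1, 0 and 0. Of 4 adipocyte markers 0 were called. RSK2 tumours, second for Dusp1, had muscle values from 0.83 to 4.04 and fibroblast values from 0.11 to 0.86. The part of these cells and genes in the results was not tested.

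MAP3K11 set against MAP3K7, the other MAP kinase kinase kinase of the study, gave 4 higher genes and no lower one. Of all genes, 37.4% were called, 16.6% as higher. Dusp1 differed by 1.67 ± 0.30 (adjusted p = 9.00e-06 by limma), Egr2 by 1.26 ± 0.30, Jund by 0.63 ± 0.09 and Fosl2 by 0.50 ± 0.13. All 4 calls held with the pairs as a block, where 21.6% of all genes were called. Arrays did not overlap for Fosl2, Jun, Jund and Dusp1, as for 14.7% of all genes. For Jun the difference was 0.31 and did not pass (adjusted p = 0.125 by limma). Without 2 MAP3K7 arrays that stood apart, described further on, Dusp1 differed by 2.09, Egr2 by 1.63, Jund by 0.73 and Fosl2 by 0.49. Fosb differed by 1.19 without them, against 0.35 with all arrays. These values without the 2 arrays are a description, since the arrays were left out for their levels of these genes. Macrophage markers were lower in MAP3K11 tumours in 8 of 12 (4 with the block) and endothelial markers were called in 0 of 8 by limma, and the part of these cells was not tested.

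Against HER2, the oncogene that started the tumours, MAP3K11 had 5 higher genes, where 49.2% of all genes were called and 21.5% were higher. Dusp1 differed by 2.75 ± 0.30 (adjusted p = 1.72e-11 by limma), Egr2 by 1.79 ± 0.30 and Egr1 by 0.95 ± 0.27. Jund differed by 0.68 ± 0.09 and Fosl2 by 0.44 ± 0.13. All 5 held with the pairs as a block, where 33.3% of all genes were called. As pair means, which called 4392 of the 13868 genes, Egr1 and Fosl2 were lost. Fosl2 was also lost with the mean of all probe sets and was -0.033 on its other probe set. Arrays did not overlap for 6 genes, these 5 and Fosl1 (-0.42, adjusted p = 0.185 by limma), as for 31.3% of all genes. The comparisons share the MAP3K11 arrays, so they are not separate evidence. HER2 tumours had lower endothelial and fibroblast values, with fibroblast list means from -1.08 to -0.38, and the part of this in the 5 differences was not tested.

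In MAP3K7 tumours 2 of the 6 arrays stood apart in these genes, and as they were singled out for their values they are described with no test. They stood apart well beyond these genes. Of the 13868 genes tested, both arrays lay above the other 4 for 19.5% and below them for 28%. Of the 10 genes, 5 were above in both and 0 below. T1 replicate 2 and T3 replicate 1, a matched pair, had Fos at 10.07 and 11.34, against 8.15 to 8.96 in the other 4 MAP3K7 arrays. Fosb was at 7.16 and 6.95, against 4.13 to 4.86. Junb was above 8.61, the highest of the other 4, in both, with 10.20 in T3 replicate 1, and Egr1 at 10.84 and 11.56, against 9.14 to 9.77. T3 replicate 1 was the highest of all 76 arrays for Fos, Junb and Egr1. Dusp1 was also above, at 10.05 and 10.53 against 8.45 to 9.59, while both arrays lay within the range of the other 4 for Fosl1 and Fosl2. Jun was at 9.82 in T1 replicate 2, below the others, and at 10.29 in T3 replicate 1, level with the highest of them (10.28).

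The same pair had higher AP-1 target genes, at 1.03 and 1.14 on the list mean, against -0.32 to -0.12 in the other 4 MAP3K7 arrays. Other immediate early genes (0.19 and 0.44, against -0.27 to -0.22) and feedback repressors (0.33 and 0.34, against -0.47 to -0.06) were higher too. So were other basic leucine zipper partners of AP-1 (0.02 and 0.21, against -0.17 to -0.06). Lists of the JNK cascade and of serum response factor partners overlapped. The pair also had low muscle values (-2.22 and -2.26) and low epithelial values (-0.53 and -0.39, against 0.06 to 0.33). Macrophage values (-0.27 and -0.27, against -0.08 to 0.98) and B cell values (-0.07 and -0.03, against 0.10 to 0.44) were low as well. The part of these in the high Fos, Fosb, Junb and Egr1 was not tested. Against HER2, MAP3K7 called Dusp1 (1.09), Egr1 (1.06), Fosl1 (-0.71) and Jun (-0.45), where 36.5% of all genes were called, and the block kept Dusp1 and Egr1, where it called 18.3%. Arrays overlapped for all 10 genes, and did not for 14.1% of all genes. Without the 2 arrays, and with no test, Dusp1 differed by 0.67, Egr1 by 0.44, Fosb by -1.46 and Junb by -0.43, so the differences of Dusp1 and Egr1 from HER2 were larger with these arrays than without them. Jun in MAP3K7 tumours, between 9.82 and 10.29, was the lowest of all groups and differed from the rest by -0.62 ± 0.12 (adjusted p = 0.000121 by limma, called with the block too). It was the only called gene of the 10 there, where 24.4% of all genes were called and 7.9% with the block.

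**Figure D2:**
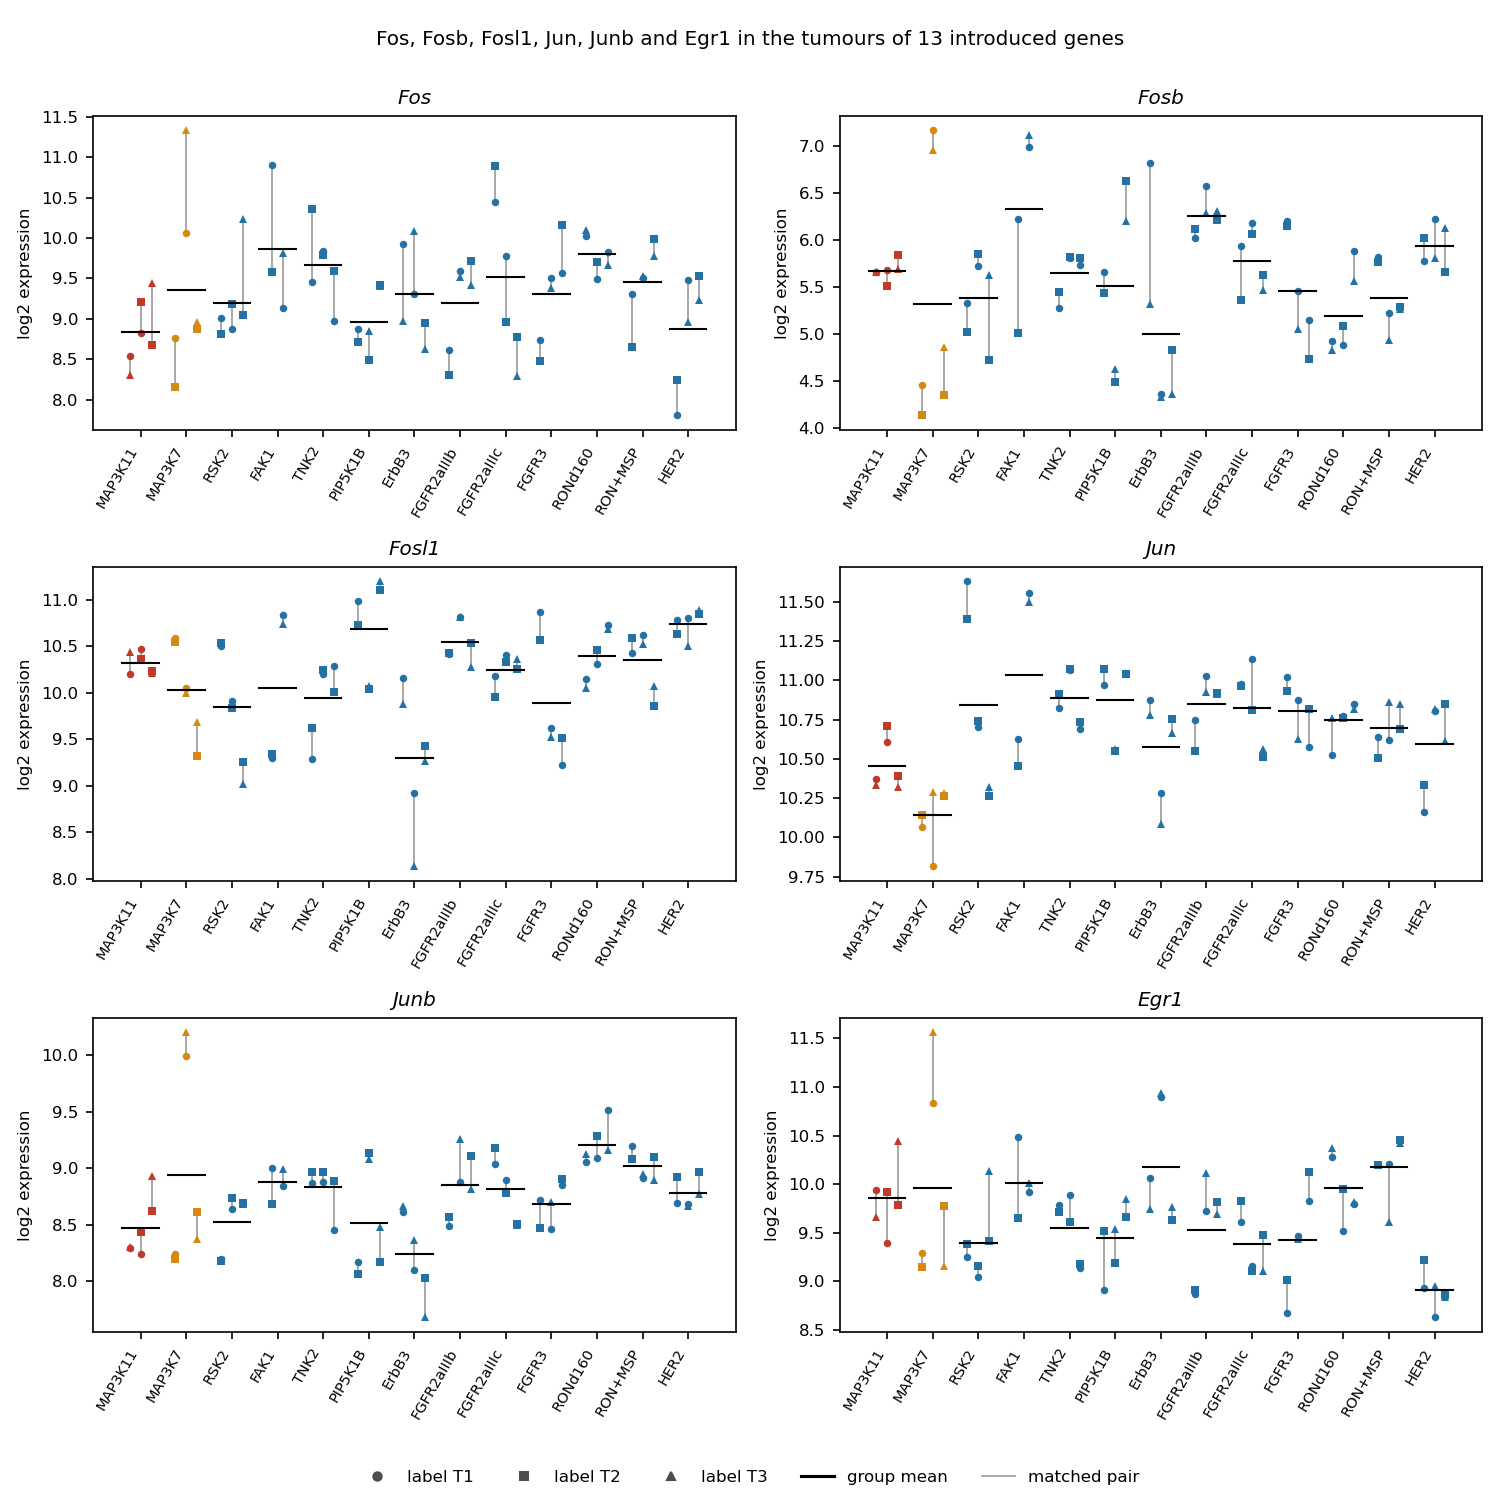
Log2 expression (vertical axis) of Fos, Fosb, Fosl1, Jun, Junb and Egr1 in each array, by introduced gene (horizontal axis), drawn as in the plot of Dusp1 and Jund. The 2 MAP3K7 arrays with Fos at 10.07 and 11.34 are a matched pair, and Jun is lowest in MAP3K7 tumours (9.82 to 10.29).

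ErbB3 tumours had the lowest group means of Fosl1, Fosl2, Fosb and Junb. Fosl1, between 8.13 and 10.15, differed from the other groups by -0.94 ± 0.20 (adjusted p = 0.000232 by limma), and Junb, between 7.68 and 8.67, by -0.58 ± 0.16. Both held with the pairs as a block. Fosb (-0.68), Fosl2 (-0.28), Jund (-0.19) and Egr2 (0.62) were also called but lost with the block, so 6 of 10 genes were called, against 28.6% of all genes, and 2 with the block, against 11.9%. The muscle list in ErbB3 tumours ran from -2.04 to 3.91, and the fibroblast list from 0.04 to 0.87.

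HER2 tumours had the lowest group means of Egr1 and Egr2 and the highest of Fosl1. Egr2 was between 5.92 and 6.68 and differed by -0.95 ± 0.22 (adjusted p = 0.000934 by limma), and Egr1, between 8.63 and 9.22, by -0.85 ± 0.20. Dusp1 (-0.68) and Fosl1 (0.62) were called, but not with the block. The 4 calls compare with 26.6% of all genes, and the 2 with the block with 9.55%.

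In PIP5K1B, Fosl1 was called (0.58), in RON+MSP Egr2 (0.84) and in RONd160 Junb (0.49), against 18.7%, 8.57% and 23.3% of all genes. In FGFR2aIIIb, Jund (-0.23) and Dusp1 (-0.79) were called, against 11.9%. None of these 5 calls held with the pairs as a block, which called 3.61% of all genes in PIP5K1B, 0.461% in RON+MSP, 8.73% in RONd160 and 1.91% in FGFR2aIIIb. In FAK1, FGFR2aIIIc, FGFR3 and TNK2 limma called 0 of the 10 genes, against 8.42%, 1.62%, 2.6% and 5.16% of all genes, and at an unadjusted p under 0.05 it called 5, 0, 2 and 0. At that unadjusted threshold 3238, 2102, 2604 and 3040 of the 13868 genes passed in these groups. For the T labels, T2 and T3 against T1 had 0 members and 0 genes called by limma, with 1 and 0 members and 306 and 654 genes at an unadjusted p under 0.05.

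For the remaining genes, as for Egr2 and Fosl2, no neighbouring step in the order of groups was called. Fos averaged 9.86 in FAK1 and 9.80 ± 0.23 in RONd160, at the top, and 8.87 ± 0.70 in HER2 and 8.83 ± 0.42 in MAP3K11, at the bottom (SD). Junb, which can replace Jun as the partner of a Fos protein, was highest in RONd160, between 9.05 and 9.51. Fosb, the dimmest of the 10 genes with a mean of 5.58 over all arrays, averaged 6.33 ± 0.97 in FAK1 and 6.25 ± 0.19 in FGFR2aIIIb. Its spread within groups was uneven, with an SD of 1.37 in MAP3K7 and 0.10 in MAP3K11. Jun was highest in FAK1 (11.03 ± 0.57) and TNK2 (10.88). Egr1 averaged 10.18 ± 0.30 in RON+MSP and 10.17 ± 0.59 in ErbB3, against 8.90 ± 0.19 in HER2.

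**Figure D3:**
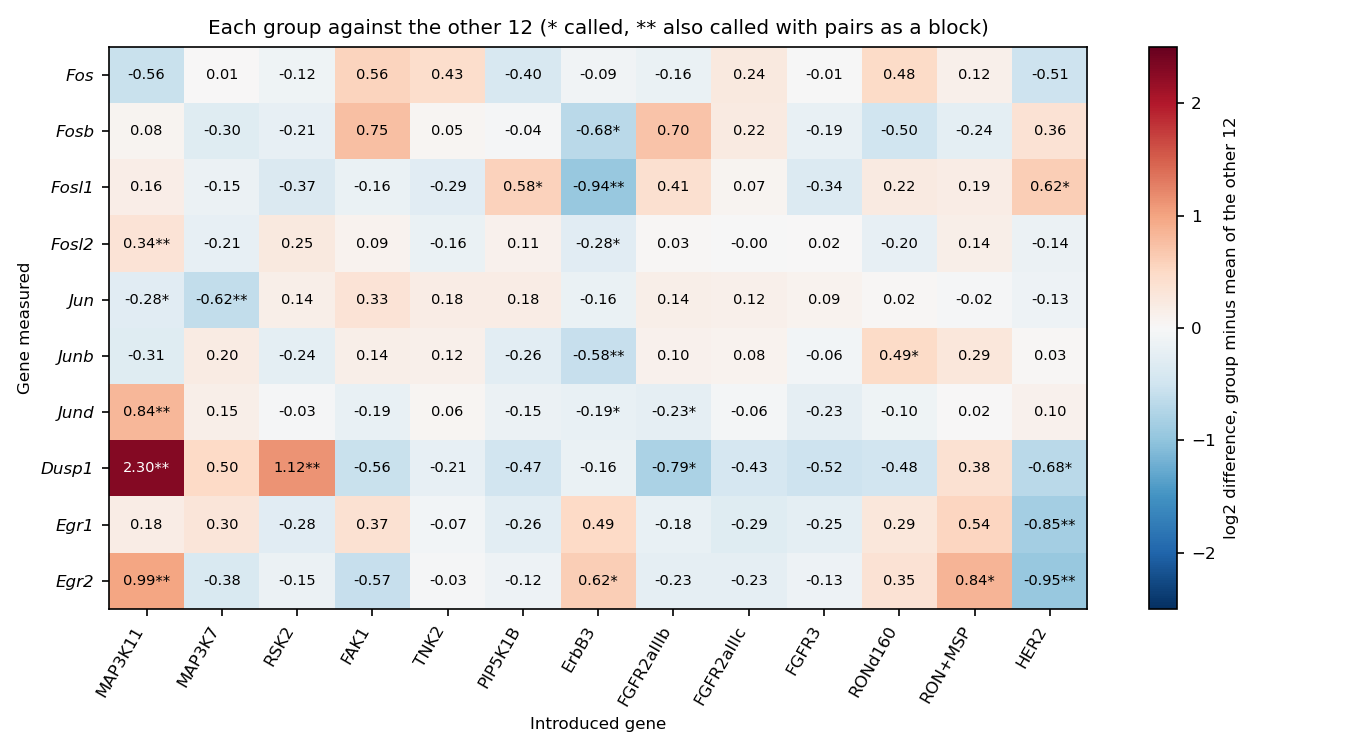
Log2 difference of each introduced gene's group (columns) from the mean of the other 12, for the 10 genes (rows); 1 asterisk marks an adjusted p under 0.05 and 2 asterisks a call that also held with pairs of arrays as a block. Dusp1 in MAP3K11 (2.30) is the largest value, no Fos cell has a mark, and Egr1 is marked in HER2 only.

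Over 76 arrays with group means removed, Fos followed Egr1 (Pearson r = 0.71), Dusp1 (0.61) and Junb (0.60), and Egr1 followed Egr2 (0.64). Fosl1 followed Jun (0.64) and ran against Egr2 (-0.65). Over the 13 group means Egr1 and Egr2 (0.64) and Fos and Junb (0.59) had values close to those within groups, and Fos and Egr1 were at 0.46. Jund and Dusp1 were at 0.83 over group means and 0.32 within groups, and Fos and Dusp1 at -0.37 over group means. These correlations describe arrays that share tumour pairs and carry no p-value. The pairs agreed most for Fosl1 (intraclass r 0.91) and least for Jund (0.56), with a median over all genes of 0.63.

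Genes most like Dusp1 over the 13 group means were Plod3 (0.97), Pdgfd (0.97) and Ldb2 (0.96), and for Jund they were Trim3 (0.97), Rela (0.97) and Ric8a (0.96). Both Dusp1 and Jund were highest in MAP3K11, so this 1 group weighs in these values. With group means removed, the same genes were at 0.24, 0.46 and 0.31 for Dusp1 and at 0.50, 0.03 and 0.09 for Jund. Within groups, Fos was most like Zfp36 (0.81), Atf3 (0.77) and Ppp1r15a (0.70) over 76 arrays. Fosb was most like Gprc5a (0.81), Hbegf (0.80) and Btc (0.79). These genes were taken from 13868, and the names describe likeness in these arrays only.

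**Figure D4:**
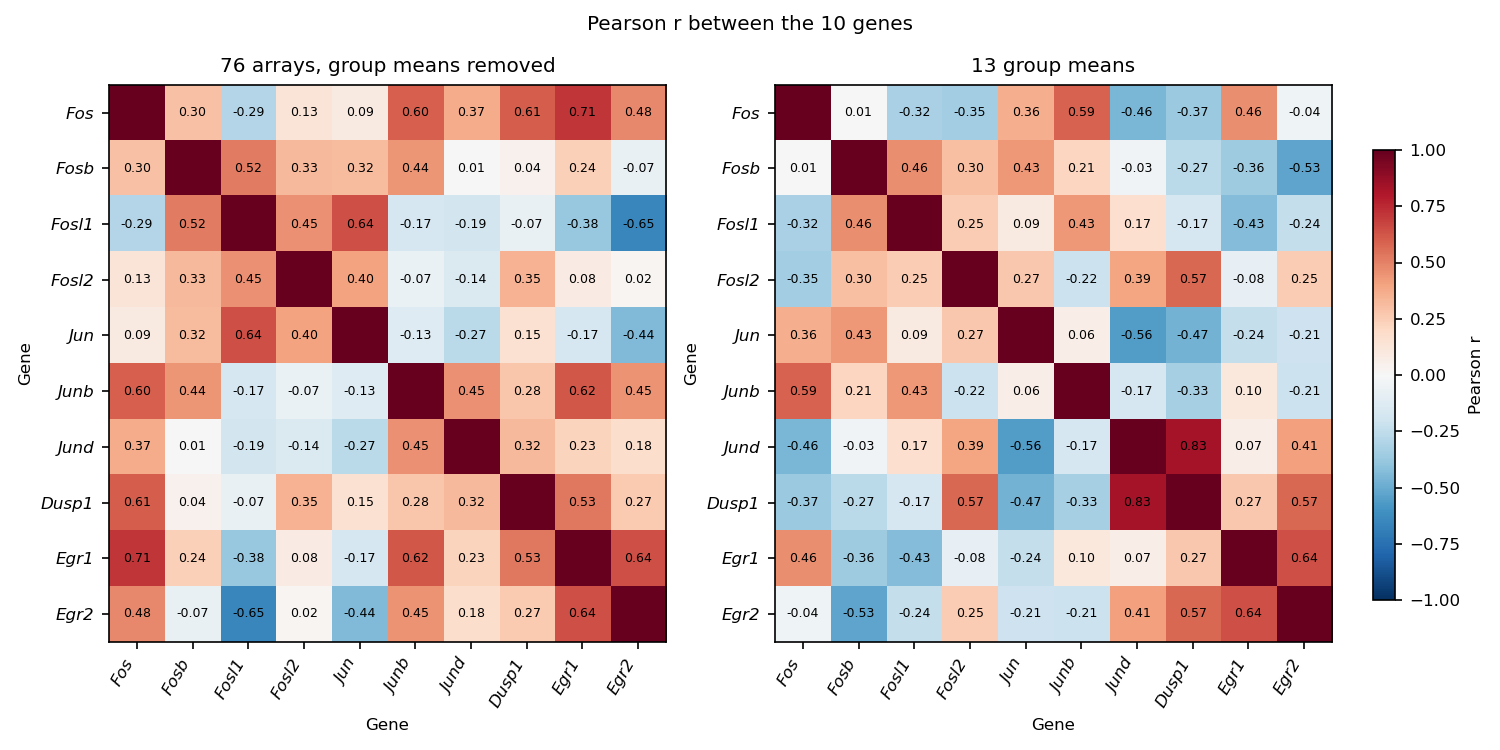
Pearson r between the 10 genes over 76 arrays with group means removed and over the 13 group means, on a colour scale from -1 to 1. Fos and Egr1 are at 0.71 within groups, and Jund and Dusp1 at 0.83 over group means.

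Around these genes, 116 listed pathway genes were tested in MAP3K11 against the other groups. Of 25 AP-1 target genes 14 were higher and 3 lower (median 0.46, against -0.01 for all genes), and with the block 12 and 2. The share called was 68%, against 54.2% of all genes. The largest were the cornified envelope gene Sprr1a (2.19 ± 0.38) and the matrix metalloproteinases Mmp9 (1.77 ± 0.42), Mmp12 (1.73 ± 0.49) and Mmp13 (1.51 ± 0.37). Of 17 feedback repressors of MAP kinase signalling, 7 were higher and 6 lower (median 0.20; with the block 6 and 6), or 76.5%. The JNK and p38 phosphatase Dusp10 differed by 2.99 ± 0.16 (adjusted p = 1.91e-24 by limma), Dusp8 by 1.70 and Dusp4 by 1.69, and Tsc22d3, a glucocorticoid-induced gene, was lower by 1.83.

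Among 30 other immediate early genes 10 were higher and 7 lower (median 0.09; with the block 10 and 5), so 56.7% were called, against 54.2% of all genes. Plk3 differed by 1.33, Phlda1 by 1.19, Gadd45b by -1.53 and Klf10 by -1.21. Among 16 other basic leucine zipper partners 7 were higher and 4 lower (with the block 5 and 4), or 68.8%, led by Creb5 (1.51), Batf3 (1.01), Maf (-0.87) and Maff (0.80). Of 22 genes of the JNK cascade 8 were higher and 4 lower (median 0.02; with the block 4 and 3), or 54.5%, with Map3k5 at -1.03 and Map3k14 at -0.89, Map3k12 at 0.45 and Map2k4 at 0.44. Mrtfb (0.34) was the only called gene of 6 serum response factor partners.

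Against MAP3K7, AP-1 target genes were higher in 7 of 25 and lower in 2 (with the block 5 and 2), so 36% were called, against 37.4% of all genes. Feedback repressors were higher in 6 of 17 and lower in 4 (with the block 5 and 4), or 58.8%. Dusp10 (2.90) and Dusp8 (1.53) led the repressors. Mmp12 (2.13) was higher but lost with the block (adjusted p = 0.0503). Mmp1a differed by -1.88, but its MAP3K11 mean of 2.71 lay below the control level of 2.95, so that difference is limited by background. Plk3 (1.32) and Creb5 (1.47) were higher, and Gadd45b (-1.32), Maf (-0.96), Map3k5 (-0.90) and Map3k14 (-0.86) lower.

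**Figure D5:**
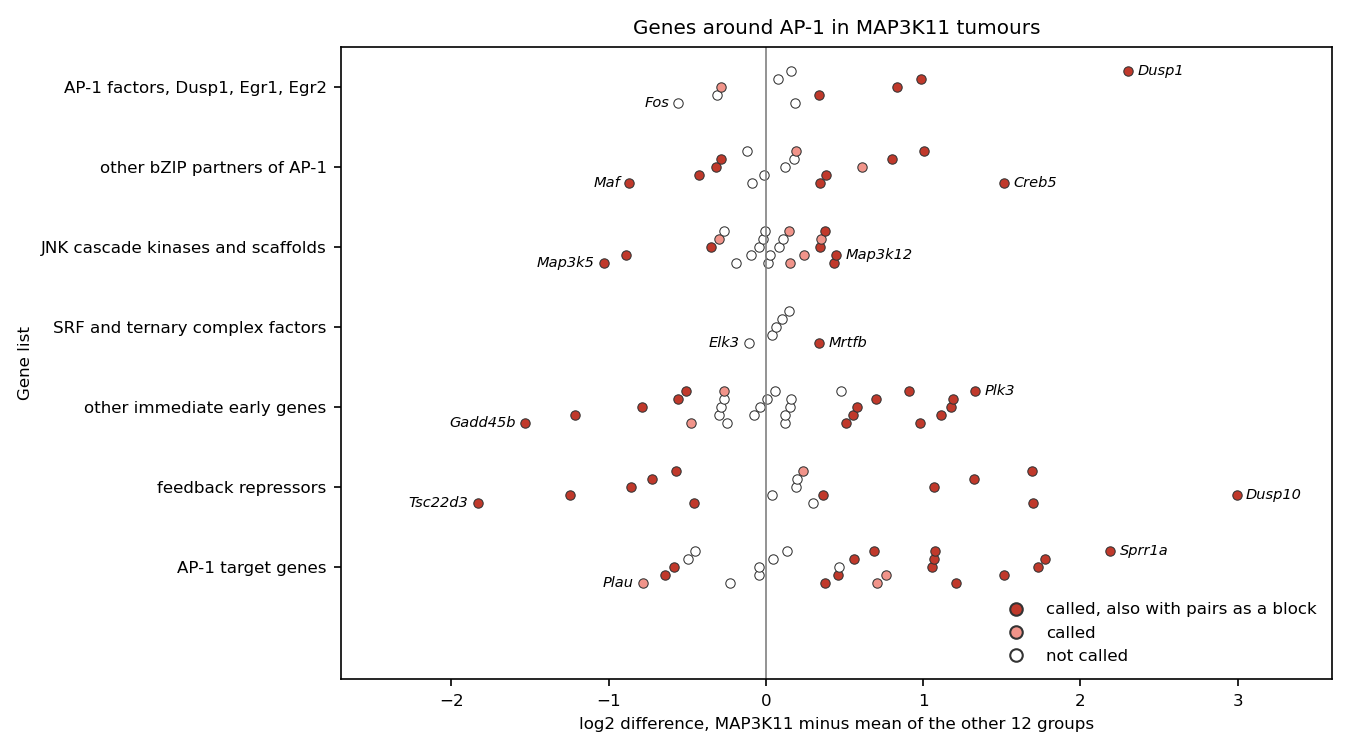
Log2 difference (horizontal axis) of MAP3K11 from the mean of the other 12 groups, for the 10 genes and 6 lists of related genes (rows); red points were called, dark red also with pairs as a block, and the extreme genes are named. Dusp10 (2.99), Dusp1 (2.30) and Sprr1a (2.19) are the highest named points.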

How the data were processed

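The 10 genes and the related lists were chosen with earlier results of these data known. The deposited values are log2 intensities of 76 arrays, made by the authors with affy, per the submitters' processing notes, with no version; how they were normalized was not stated, and they were used as deposited. Of 45101 probe sets, 34958 name 1 gene, 932 several and 9211 none. For 18194 genes the brightest probe set by mean was kept, and 13868 genes were tested, those above the 40th percentile of an array in 4 or more arrays. All arrays were fitted with limma 3.58.1 (statmod 1.5.0, R 4.3.3), with introduced gene and T label as terms and 61 residual degrees of freedom. Two-sided p-values were adjusted by Benjamini-Hochberg over the 13868 genes tested, and called under 0.05. Pairs of arrays were matched within groups by 19 autosome medians, as a random block in an alternative (estimated correlation 0.628). Besides the 10 genes, the named genes are up to 4 called genes of each list with the largest difference in MAP3K11 against the other groups, up to 2 against MAP3K7, and the 3 genes most like a member. Arrays of the same T label and replicate number in other groups correlated at a median of -0.01 over 370 pairs (-0.50 to 0.52). Arrays of another T label or number in other groups had a median of -0.0013. The numbers thus marked no general likeness, but a median cannot show whether some arrays shared a run. Figures were drawn with matplotlib 3.10.9. The fit was tried on simulated data with independent arrays, which does not show how it behaves with paired arrays.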

Additional observations from a re-analysis of the deposited data

Results flagged for a closer look

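In 6 of 130 combinations of a member gene and a group, 1 array lay far from the others of its group by Dixon's criterion, where chance gives about 1 in 20, or 6.5. Fos was 10.24 in RSK2 T3 replicate 1, and the next array was at 9.18. Egr1 was 10.13 in the same array, with the next at 9.41. Jun was 10.52 in RONd160 T1 replicate 1, below 10.76 in the nearest array. Jund was 9.75 in RONd160 T2 replicate 1, above 9.61. Junb was 8.45 in TNK2 T1 replicate 3, below 8.87, and Egr1 was 9.61 in RON+MSP T3 replicate 2, below 10.19.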

How the results depend on the processing

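Of 35 called results of the 10 genes, 1230 of 1420 values under alternatives kept their direction and call, 187 lost the call and 3 turned. Dusp1 and Jund in MAP3K11 against the other 12 groups kept theirs under all 50 alternatives run, at 2.00 to 2.61 and 0.53 to 1.02. As pair means, 3 genes were called by the F test, 3 in MAP3K11 against HER2 and 0 in MAP3K7 against HER2 (limma, 2 at an unadjusted p under 0.05). With pairs as a block, or at a threshold of 0.01, MAP3K7 against HER2 had 2 calls, Dusp1 and Egr1. It also had 2 calls without the 2 MAP3K7 arrays, then Fosb and Junb, and 2 with only the arrays of these 2 groups. Dusp1 and Egr1 were not called in either of these last settings. The 2 MAP3K7 arrays were left out for their values, so calls without them are no test. Calls were also gained: array weights gave 10 by the F test, 7 in MAP3K11 against the other groups, 5 against MAP3K7 and 6 against HER2. They raised calls genome-wide too, in the same order to 12589, 8229, 5509 and 7742 of 13868 genes, from 11916, 7521, 5189 and 6826. Junb in MAP3K11 against the other groups passed in 5 of 50 alternatives (adjusted p from 0.0239 to 0.737 by limma). The mean of all probe sets gave 3 in MAP3K11 against the other groups. Among T1 arrays the calls were 2 by the F test, 2 in MAP3K11 against the other groups, 0 against MAP3K7, 2 against HER2 and 0 in MAP3K7 against HER2 (limma; the counts of 0 had 3 and 2 at an unadjusted p under 0.05). Among T2 arrays they were 0, 3, 2 (against HER2) and 0, with 3 and 1 unadjusted for the counts of 0. Among T3 arrays they were 0, 2, 1 (MAP3K7), 3 (HER2) and 0, with 4 and 2 unadjusted. With 1 of 22 arrays left out, counts ran from 8 to 9 by the F test, 4 to 5 in MAP3K11 against the other groups, 4 to 5 against MAP3K7, 5 to 5 against HER2 and 2 to 5 in MAP3K7 against HER2, the 2 without HER2 T2 replicate 1. The replicate block changed 0 of 57 calls and gave 9, 5, 4, 5 and 4. Genome-wide, the pair block gave 7495 genes by the F test against 11916, 2996 against 5189 in MAP3K11 against MAP3K7 and 2531 against 5056 in MAP3K7 against HER2. Pair means gave 5910 by the F test, 2648, 4392 and 1836 in MAP3K11 against MAP3K7, MAP3K11 against HER2 (6826 in the whole fit) and MAP3K7 against HER2, and the last had 3238 at 0.01 and 3114 with its arrays alone. T1, T2 and T3 arrays alone gave 1104, 1181 and 166 by the F test, 2959, 2673 and 2666 in MAP3K11 against the other groups (7521 in the whole fit), 515, 1542 and 429 against MAP3K7, 1964, 1877 and 1177 against HER2, and 445, 783 and 3 in MAP3K7 against HER2, each with fewer arrays. Scaling moved the median of all genes by under 0.1. The 3 turned calls were Fosl2 in ErbB3 (0.053 among T1 arrays), Egr2 in ErbB3 (-0.47, T2) and Fosl2 in MAP3K11 against HER2 on the other probe set (-0.033). Uncalled results turned too: among T1 arrays Fosb against the others (-0.12) and MAP3K7 (-0.14), Fos (0.043) and Jun (0.0082) in MAP3K11 against HER2, and Fosl2 in MAP3K7 against HER2 (0.060). Among T2 arrays, MAP3K11 against MAP3K7 gave Fos 0.43, Junb 0.12 and Egr1 0.40, MAP3K11 against HER2 gave Fos 0.058, and MAP3K7 against HER2 gave Fos -0.37, Junb -0.54 and Jund -0.17. Fosb against MAP3K7 was -0.23 among T3 arrays. In MAP3K11 against HER2, Fos was 0.035 after quantile normalization and Jun 0.072 with mean probe sets and 0.28 on its other probe set. With array weights Egr1 against MAP3K7 was 0.28, and Fos -0.053 and Junb -0.25 in MAP3K7 against HER2. Without the 2 MAP3K7 arrays, Fos was 0.13, Junb 0.12 and Egr1 0.51 in MAP3K11 against MAP3K7, and Fos -0.17, Junb -0.43 and Jund -0.048 in MAP3K7 against HER2. With 1 array left out, Fos in MAP3K11 against HER2 ran from -0.26 to 0.12, Egr1 against MAP3K7 from -0.30 to 0.20, Junb in MAP3K7 against HER2 from -0.10 to 0.30 and Jund from -0.0071 to 0.13. The cause was not tested.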
